A study of Homo sapiens and Mus musculus with 12 samples.

Results

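The genes described here are 10 genes of small intestinal absorption, digestion and mucosal defence, measured in the colon: Sis, Slc10a2, Rbp2, Dmbt1, Fabp6, Apoa1, Apoa4, Lct, Anpep and Mttp. They were chosen by symbol, whatever their level, and all 10 of 10 symbols were found among the 17383 genes of the mouse table. RNA-seq, a count of sequenced RNA fragments, had been run on colon of C57BL/6J mice killed at 12 weeks of age, 3 Zfp280c knock-out and 3 wild-type libraries. The labels name only the genotype. They do not say how the allele was made, which cells lost the gene, which stretch of colon was taken, or whether animals were pooled. Each numbered library is treated as a replicate. Since nothing in the labels states that the libraries came from separate animals, p-values measure the spread between these libraries only. Levels are FPKM, a fragment count scaled to transcript length and to the size of the library, so genes can be compared per length.

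The absorptive enterocyte of the small intestine carries digestive enzymes on its brush border, takes up their products through transporters, and packs dietary fat into chylomicrons. The last stretch, the ileum, also recovers bile acids. The sodium-dependent transporter encoded by Slc10a2 brings them into the cell, the binding protein encoded by Fabp6 carries them across, and the exporter pair encoded by Slc51a and Slc51b passes them to the blood. The colon mainly absorbs water, salt and short-chain fatty acids and expresses much of this programme weakly. The 10 genes are therefore a list drawn from knowledge of the small intestine. No small intestinal library was measured, so the label could not be checked against that tissue.

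The libraries differed in more than genotype. Zfp280c stood at 0.09, 0.09 and 0.22 FPKM in the knock-outs and at 2.48, 2.25 and 3.17 in the wild-types. A HOX position score, the mean log2(FPKM + 1) of Hoxb6, Hoxb7 and Hoxb8 (proximal) minus that of Hoxb13, Hoxa13, Hoxd11, Hoxd12 and Hoxd13 (distal), was 1.28 to 2.68 in the knock-outs. Wild-type replicate 2 lay within that range at 1.88, while wild-type replicates 1 and 3 lay at -2.43 and -4.42. Pan-epithelial markers were similar: 9 of 9 genes summed to 13423 to 14582 FPKM in the knock-outs and 12887 to 14558 in the wild-types. Markers of colon absorptive epithelium (11 of 11) were less alike, at 14526 to 20145 FPKM in knock-outs and 8457 to 16775 in wild-types. Their sum was lowest in wild-type replicates 1 and 3 (11979 and 8457), with 5 genes higher and 6 lower in knock-out. Smooth muscle markers (7 of 7) summed to 464 to 744 FPKM in knock-outs and 357 to 581 in wild-types, and macrophage markers (6 of 6) to 49.6 to 74.3 and 62.8 to 143. The part these differences play in the results was not tested. In whole tissue, fewer cells of a type and less RNA per cell cannot be told apart.

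The 10 genes covered a wide range of levels. Dmbt1, which encodes a secreted scavenger receptor protein of mucosal surfaces, averaged 1203 FPKM over the 6 libraries and ranked 34 among the 17383 genes. Rbp2, which encodes the enterocyte's retinol-binding protein, followed at 58.4, then Slc10a2 at 31.7 and Fabp6 at 16.1. Anpep, encoding the brush border aminopeptidase N, averaged 3.34 and Sis, encoding sucrase-isomaltase, 1.51. The remaining members averaged below 1 FPKM: Apoa1 at 0.735, Mttp at 0.712, Apoa4 at 0.0800 and Lct at 0.00833.

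Some neighbours in this order were not separated. Dmbt1 exceeded Rbp2, Fabp6 exceeded Anpep and Mttp exceeded Apoa4 in 6 of 6 libraries. Rbp2 exceeded Slc10a2 in only 3 of 6, and Apoa1 exceeded Mttp in 1 of 6. Slc10a2 over Fabp6, Anpep over Sis and Sis over Apoa1 each held in 4 of 6, and Apoa4 over Lct in 5 of 6.

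**Figure D1:**
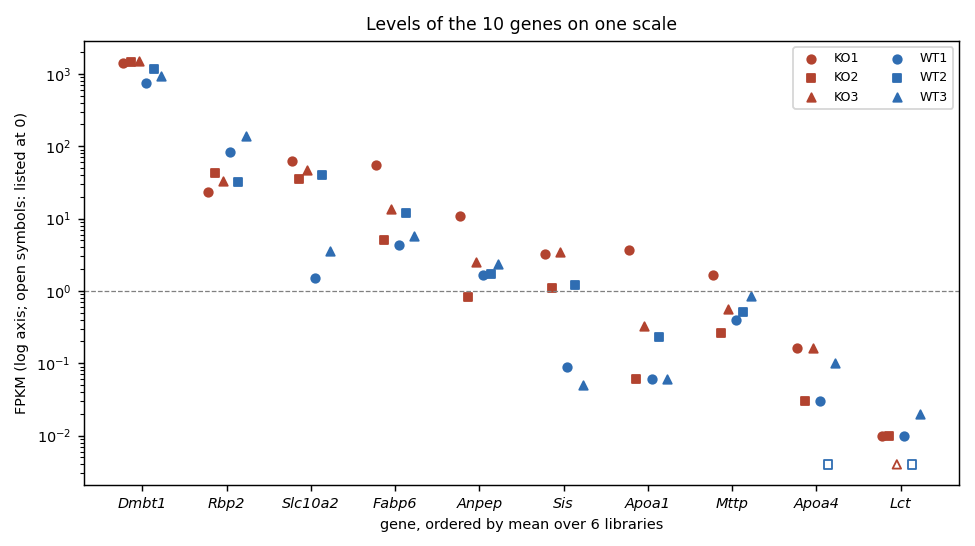
FPKM of each gene in each of the 6 libraries on a logarithmic axis, ordered by the mean over libraries (red, knock-out; blue, wild-type; the dashed line is 1 FPKM; open symbols at the bottom are values listed at 0). Dmbt1 lies at 738.02 FPKM or more in every library, and Apoa4 and Lct lie below 1 in every library.

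The comparison of genotypes asked which of these transcripts differ when Zfp280c is deleted. Values were compared as log2(FPKM + 1) with limma, a linear model with variances shared across genes, over the 11366 genes with a mean of at least 1 FPKM. Sis, Slc10a2, Rbp2, Dmbt1, Fabp6 and Anpep, 6 of the 10, met that minimum. At a Benjamini-Hochberg adjusted p under 0.05, 0 of the 11366 genes passed (0%), and so 0 of the 6. At an unadjusted p under 0.05 there were 1420 genes (12.5%), Sis, Slc10a2 and Dmbt1 among them. Sis averaged 2.58 FPKM in knock-out and 0.450 in wild-type, so it met the minimum only through its knock-out values. Its place in this count and in the members' median follows in part from those same values. The median log2 fold change was 0.90 over the 6 members and -0.02 over all genes tested, where a positive value is higher in knock-out. Of the 11366 genes tested, 5073 were positive and 6293 negative.

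**Figure D2:**
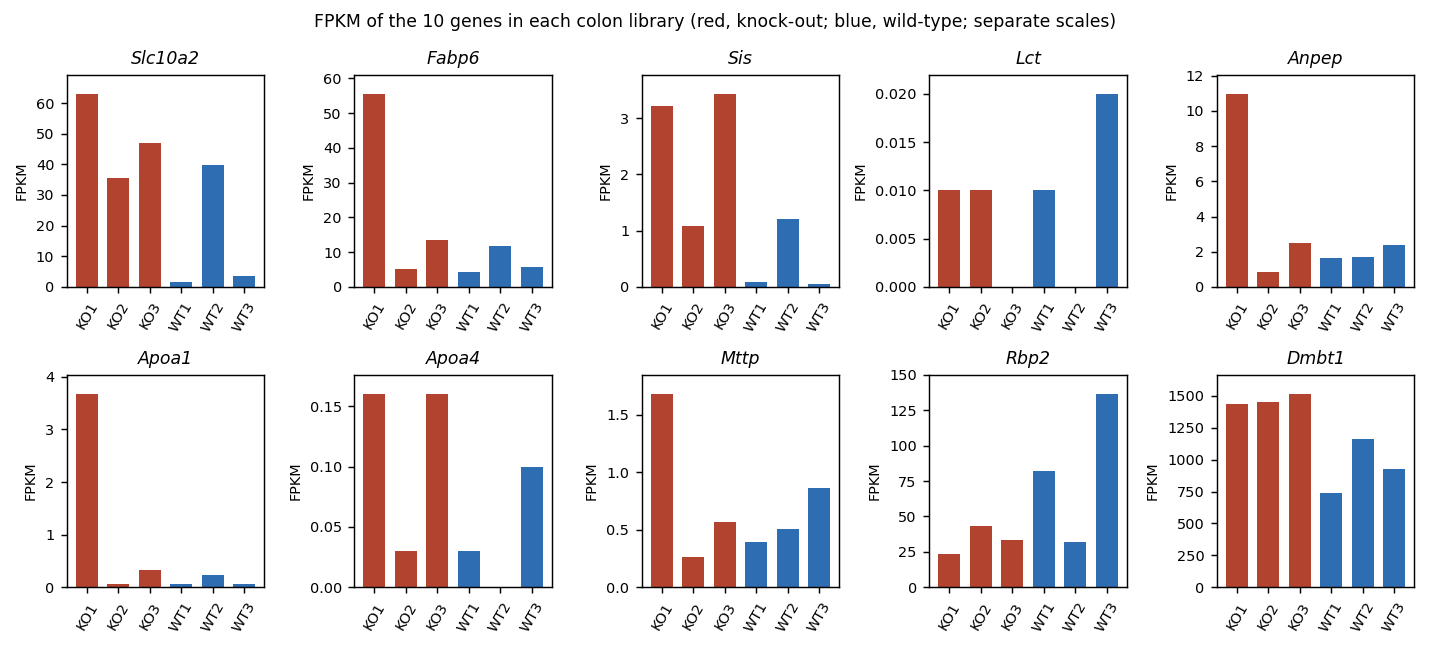
FPKM of each of the 10 genes in each library as bars from 0, each panel on its own scale (KO, knock-out, red; WT, wild-type, blue). Slc10a2 and Sis are low in wild-type replicates 1 and 3 alone, Rbp2 is high in the same pair, and Fabp6, Anpep, Apoa1 and Mttp are highest in knock-out replicate 1.

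Slc10a2, the ileal bile acid transporter gene (Entrez gene 20494), stood at 62.99, 35.45 and 46.94 FPKM in the knock-outs and at 1.52, 39.65 and 3.61 in the wild-types. The groups overlapped, because wild-type replicate 2 lay above knock-out replicate 2, while wild-type replicates 1 and 3 lay below all others. The means were 48.5 ± 13.8 and 14.9 ± 21.4 FPKM (SD, n = 3 each). The log2 fold change was 2.63 ± 0.97 (SE) and did not pass (adjusted p = 0.396, limma). Its size was the largest among the 6 tested members. Without wild-type replicate 2 it was 3.82 ± 0.31 and passed (adjusted p = 0.00186, limma). Adding the HOX score to the model as a covariate left 0.60 ± 0.65 (adjusted p = 0.989, limma). Group differences in that model, here and for other members, rest largely on wild-type replicate 2, the only wild-type library within the knock-outs' range of scores.

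Fabp6, whose product carries bile acids inside ileal cells (Entrez gene 16204), stood at 55.58, 5.03 and 13.65 FPKM in the knock-outs and at 4.38, 11.91 and 5.80 in the wild-types. Knock-out replicate 1 was alone at its level, and the other 5 libraries spread from 4.38 to 13.65 with the genotypes interleaved. Its log2 fold change of 1.13 ± 0.79 did not pass (adjusted p = 0.535, limma), and without knock-out replicate 1 it was 0.27 ± 0.51 (adjusted p = 0.850, limma). Without knock-out replicate 2 it was 1.89 ± 0.67, again without passing. Fabp6 and Slc10a2, which act in succession on bile acids, thus had different profiles: knock-out replicate 2 held 35.45 FPKM of Slc10a2, close to wild-type replicate 2, but 5.03 of Fabp6, within the range of wild-type replicates 1 and 3.

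The other tested genes of bile acid transport and sensing had higher means in knock-out colon. Of 9 genes in that list, both members included, 6 were tested. All 6 had positive log2 fold changes (median 1.15), limma called 0, and unadjusted p was below 0.05 in 4, against 12.5% of all genes tested. Slc51a, 1 subunit of the basolateral bile acid exporter, stood at 210.06, 98.72 and 159.77 FPKM in the knock-outs and at 3, 125.93 and 0.49 in the wild-types, an even wider spread than that of Slc10a2. Its partner Slc51b stood at 220.42, 139.15 and 144.19 against 79.62, 152.32 and 30.90. For both subunits wild-type replicate 2 lay inside the knock-out range. Nr1h4, encoding the bile acid receptor FXR, averaged 75.4 ± 11.1 FPKM in knock-out and 48.1 ± 18.3 in wild-type (SD, n = 3 each), and Abcc3, encoding a basolateral export pump, 113.9 ± 9.52 and 86.6 ± 10.7. Abcc3 was the only tested gene of this list whose groups did not overlap (no overlap with knock-out higher: 7.13% of all genes tested).

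Fgf15 and Nr0b2, genes that FXR is known to switch on in the ileum, were near the bottom of the table. Fgf15, a hormone gene that limits bile acid synthesis, stood at 0.06, 0.09 and 0.03 FPKM in knock-outs and at 0, 0.03 and 0 in wild-types. Nr0b2 did not exceed 0.04 in any of the 6 libraries. Gpbar1, the gene of a bile acid receptor at the cell surface, was also below the minimum level, at 0.28, 0.11 and 0.11 against 0.22, 0.17 and 0.17. Nr0b2 and Gpbar1 had lower means in knock-out, but the genotypes overlapped in both and no direction is read from such low values. Without wild-type replicate 2, 5 of the 6 tested bile acid genes were called higher, among 9.21% of all genes: Slc10a2, Slc51a, Slc51b, Nr1h4 and Abcc3. Fabp6 was not (adjusted p = 0.280, limma).

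**Figure D3:**
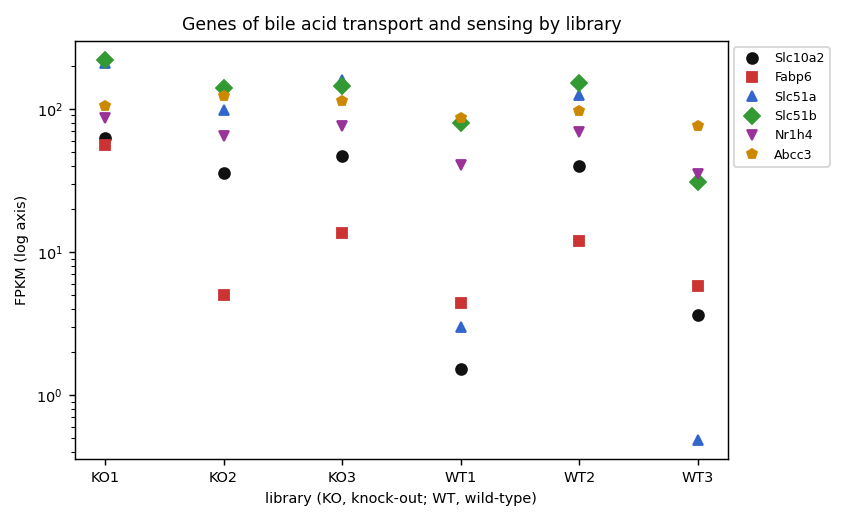
FPKM on a logarithmic axis of the 6 tested genes of bile acid transport and sensing in each library (KO, knock-out; WT, wild-type), 1 symbol per gene. Slc10a2 and Slc51a are at 3.61 FPKM or less in wild-type replicates 1 and 3, and Fabp6 has its highest value, 55.58, in knock-out replicate 1.

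Among the brush border enzymes, Sis differed most in proportion. Sis, which encodes the enzyme that splits sucrose and starch fragments (Entrez gene 69983), stood at 3.22, 1.09 and 3.43 FPKM in the knock-outs and at 0.09, 1.21 and 0.05 in the wild-types. The order followed that of Slc10a2 in part: wild-type replicates 1 and 3 were lowest, and wild-type replicate 2 lay just above knock-out replicate 2. The means were 2.58 ± 1.29 and 0.450 ± 0.658 FPKM (SD, n = 3 each), 5.73 times as high in knock-out. The log2 fold change, which the added 1 FPKM shrinks at such low levels, was 1.32 ± 0.40 and did not pass (adjusted p = 0.396, limma). With 0.1 FPKM added in place of 1 it was 2.85 ± 0.90, also without passing. It passed without wild-type replicate 2, at 1.67 ± 0.33 (adjusted p = 0.0199, limma), and the HOX covariate left 0.60 ± 0.36 (adjusted p = 0.989, limma). In all these fits Sis met the minimum level only through its knock-out values. Its call without wild-type replicate 2 therefore follows in part from those same values.

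Anpep, encoding an enzyme that trims peptides at the brush border (Entrez gene 16790), stood at 10.97, 0.83 and 2.49 FPKM in the knock-outs and at 1.67, 1.70 and 2.38 in the wild-types. Knock-out replicate 1 was again far above the rest, and the lowest library was another knock-out. The log2 fold change of 0.55 ± 0.63 did not pass (adjusted p = 0.702, limma) and turned to -0.20 ± 0.30 without knock-out replicate 1 (adjusted p = 0.816, limma). It was 1.16 ± 0.52 without knock-out replicate 2 and did not pass there. Lct, the lactase gene (Entrez gene 226413), was listed at 0.01, 0.01 and 0 in the knock-outs and at 0.01, 0 and 0.02 in the wild-types. These values lie at the last printed decimal, so no difference in lactase could be measured.

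Of 18 brush border enzyme genes, Sis, Anpep and Lct included, 15 were in the table and 13 were tested. Log2 fold changes were positive for 12 and negative for 1 (median 0.45). None was called by limma, and unadjusted p was below 0.05 in 2, against 12.5% of all genes tested. Mep1a, encoding a meprin protease subunit, averaged 325.6 ± 32.5 FPKM in knock-out and 217.0 ± 58.0 in wild-type (SD, n = 3 each) without overlap (7.13% of all genes tested were separated with knock-out higher). Alpi, the intestinal alkaline phosphatase gene, stood at 59.65, 68.64 and 74.45 against 12.45, 60.56 and 1.15. Alpi thus had wild-type replicate 2 among the knock-outs and wild-type replicate 3 lowest. Ace, the gene of angiotensin-converting enzyme, was the negative one, at 1.89, 1.47 and 2.13 FPKM against 7.81, 1.71 and 11.74. Mgam, the gene of maltase-glucoamylase, which shares starch digestion with sucrase-isomaltase, was picked out once its values were known and stood between 33.96 and 44.86 in all 6 libraries. The spread of Sis over the same libraries was from 0.05 to 3.43.

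The fat absorption members were low, and Apoa1 and Mttp were highest in knock-out replicate 1. Apoa1, encoding the main protein of high-density lipoprotein (Entrez gene 11806), stood at 3.67, 0.06 and 0.33 FPKM in the knock-outs and at 0.06, 0.23 and 0.06 in the wild-types. Knock-out replicate 1 held 11.1 times the next highest library. Mttp, encoding the transfer protein that loads fat onto apolipoprotein B (Entrez gene 17777), stood at 1.68, 0.26 and 0.57 against 0.39, 0.51 and 0.86. Knock-out replicate 1 was highest here too, at 1.95 times the next library, and knock-out replicate 2 was lowest. Apoa4, encoding a chylomicron apolipoprotein (Entrez gene 11808), stood at 0.16, 0.03 and 0.16 against 0.03, 0 and 0.10, where the genotypes overlapped.

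These genes were below the minimum level of the main comparison. In exact two-sided permutation tests on mean FPKM, whose smallest possible p is 0.1 here, p was 0.4 for Apoa1, 0.8 for Mttp, 0.3 for Apoa4 and 1 for Lct. With no minimum level, in a fit over all 17383 genes, their log2 fold changes were 0.75 ± 0.54, 0.15 ± 0.28, 0.10 ± 0.06 and -0.005 ± 0.021, and none of the 4 passed (adjusted p = 0.597, 0.844, 0.544 and 0.937, limma).

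Apoa1 is also a liver gene. Of 8 hepatocyte markers, 6 were in the table, and they summed to 2 to 2.73 FPKM in knock-outs and 3.34 to 25.1 in wild-types, of which Ttr alone gave 1.30 to 2.07 and 2.46 to 23.55. Albumin, Alb, stood at 0.11 FPKM in knock-out replicate 1 against 0.05 to 0.31 in the other libraries. Ahsg stood at 0.07 there and was listed at 0 in the other 5 libraries. Apoh (0.32), Serpina1a (0.17) and Cps1 (0.67) were not highest there. Apoh reached 0.37 in wild-type replicate 2, and Serpina1a and Cps1 reached 0.31 and 1.02 in wild-type replicate 3.

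Several other fat absorption genes were abundant. Of 22 genes in the list, 16 were tested, 12 positive and 4 negative (median 0.44). None was called by limma, and unadjusted p was below 0.05 in 4, against 12.5% of all genes tested. They were Dgat2 and Soat2, which encode enzymes that esterify fat and cholesterol, Slc27a4, a fatty acid transport protein gene, and Cd36, a fatty acid receptor gene. Cd36 met the minimum level only through its knock-out values, so its place in this count follows in part from them. Dgat2 averaged 97.9 ± 4.59 FPKM in knock-out and 53.3 ± 30.1 in wild-type (SD, n = 3 each), Slc27a4 66.1 ± 3.27 and 38.8 ± 20.3, Soat2 2.27 ± 0.405 and 1.09 ± 0.524, and Cd36 1.90 ± 0.911 and 0.753 ± 0.230. Groups did not overlap in Dgat2, Slc27a4 and Soat2, 3 of the 16 tested (7.13% of all genes tested were separated with knock-out higher), and overlapped in Cd36. Apob, the gene of the protein that Mttp's product loads, stood between 22.88 and 41.58 FPKM in all 6 libraries, and Fabp2, an enterocyte fatty acid binding protein gene, between 881.37 and 1209.78 in the knock-outs and at 253.78, 1026.41 and 16.97 in the wild-types. Both names were chosen after their values were seen.

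Rbp2 ran against the other tested members. Rbp2 (Entrez gene 19660) stood at 23.41, 42.96 and 33.11 FPKM in the knock-outs and at 82.04, 32.27 and 136.37 in the wild-types. Wild-type replicates 1 and 3 were the highest, and wild-type replicate 2 lay inside the knock-out range. The means were 33.2 ± 9.78 and 83.6 ± 52.1 FPKM (SD, n = 3 each). The log2 fold change was -1.12 ± 0.51 and did not pass (adjusted p = 0.399, limma). Without wild-type replicate 2 it was -1.69 ± 0.29 and passed (adjusted p = 0.0130, limma), without wild-type replicate 3 it was -0.66 ± 0.42 (adjusted p = 0.829, limma), and the HOX covariate left 0.07 ± 0.15 (adjusted p = 0.997, limma). In the fit without wild-type replicate 2, 7.19% of all genes were called lower and 9.21% higher. Of the 6 tested members, Rbp2 was called lower and Slc10a2, Sis and Dmbt1 higher. Sis met the minimum in that fit only through its knock-out values, so its call follows in part from them.

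Retinoid genes did not share 1 profile. Of 11 genes, Rbp2 included, 7 were tested, 5 positive and 2 negative (median 0.28). None was called by limma, and 1 had an unadjusted p below 0.05, against 12.5% of all genes tested. The negative ones were Rbp2 and Bco1, the gene of the enzyme that splits beta-carotene into retinal, at 0.94, 1.09 and 1.04 FPKM against 1.89, 0.90 and 2.66. Isx, encoding a homeodomain repressor of Bco1, stood at 156.28, 128.41 and 158.11 against 48.15, 139.43 and 5.30. The levels of Isx were lowest in the 2 wild-type libraries where those of Bco1 and Rbp2 were highest. That pair lay on one side of the other libraries in 43.7% of all genes tested, and a link between these genes was not tested. Aldh1a1, encoding an enzyme that makes retinoic acid, averaged 259.6 ± 9.24 FPKM in knock-out and 152.5 ± 88.9 in wild-type (SD, n = 3 each). Lrat, which encodes the enzyme that esterifies retinol bound to the Rbp2 product, averaged 3.46 ± 0.985 and 2.28 ± 1.65.

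Dmbt1 was the only 1 of the 10 members whose genotypes did not overlap. Dmbt1 (Entrez gene 12945) stood at 1432.96, 1448.93 and 1512.57 FPKM in the knock-outs and at 738.02, 1158.56 and 924.30 in the wild-types. The knock-outs lay close together and the wild-types lay apart, with wild-type replicate 2 nearest to the knock-outs. The means were 1465 ± 42.1 and 940.3 ± 210.7 FPKM (SD, n = 3 each), 1.56 times as high in knock-out. Its log2 fold change of 0.66 ± 0.17 did not pass (adjusted p = 0.396, limma; exact permutation p = 0.1, the smallest possible). A complete separation with knock-out higher was found in 7.13% of all genes tested, against 1 of the 6 tested members. The log2 fold change was 0.83 ± 0.12 without wild-type replicate 2 (adjusted p = 0.0083, limma) and 0.44 ± 0.19 with the HOX covariate (adjusted p = 0.989, limma).

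Other mucosal defence genes went both ways. Of 12 genes, 11 were tested, 7 positive and 4 negative (median 0.88). None was called by limma, and 4 had an unadjusted p below 0.05, against 12.5% of all genes tested. Reg3b, an antimicrobial lectin gene, stood at 448.78, 307.87 and 80.17 FPKM in the knock-outs and at 0.29, 208.06 and 0.22 in the wild-types. Saa3, a serum amyloid A gene, averaged 12.3 ± 1.65 against 3.96 ± 4.29. Its relative Saa1 averaged 1185 ± 404.6 against 3276 ± 1823. Pigr, encoding the receptor that carries IgA into the lumen, averaged 684.1 ± 40.4 against 1157 ± 346.2 (SD, n = 3 each). Pigr did not overlap between genotypes and had the lower knock-out level, the opposite of Dmbt1 (9.79% of all genes tested were separated in that direction). In the direction of Dmbt1, 2 tested genes of this list did not overlap, Saa3 among them (7.13% of all genes tested).

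The libraries' HOX scores can be set beside the levels of Slc10a2, Sis and Rbp2. In 4 of the 6 tested members, wild-type replicates 1 and 3 lay on one side of the other 4 libraries: below them in Slc10a2, Sis and Dmbt1 and above them in Rbp2. The same order, in either direction, held for 43.7% of all genes tested, 22% with that pair below and 21.7% with it above, so it is common in this table. Within that pair the order of Slc10a2 was against that of the score: 3.61 FPKM in wild-type replicate 3 at -4.42 and 1.52 in replicate 1 at -2.43. Dmbt1 was likewise higher in replicate 3, at 924.30 against 738.02. Sis and Rbp2 kept the order of the score there: replicate 3 had the lower Sis (0.05 against 0.09) and the higher Rbp2 (136.37 against 82.04). Because the libraries fell into separate clusters on the score, no correlation is given. Within the cluster formed by the knock-outs and wild-type replicate 2, the library with the highest score, knock-out replicate 1, had the highest Slc10a2 and Fabp6 and the lowest Rbp2 but not the highest Sis, which was 3.43 in knock-out replicate 3 against 3.22. In that cluster, the library with the lowest score, knock-out replicate 2, had the lowest Slc10a2, Sis and Fabp6 and the highest Rbp2. Dmbt1 did not follow the score there. It stood at 1432.96, 1448.93 and 1512.57 FPKM in knock-out replicates 1, 2 and 3 and was lowest in wild-type replicate 2, at 1158.56. Genotype and the position score cannot be told apart in a fit without wild-type replicate 2, since it compares 3 knock-outs at 1.28 or more with wild-types at -2.43 and -4.42.

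**Figure D4:**
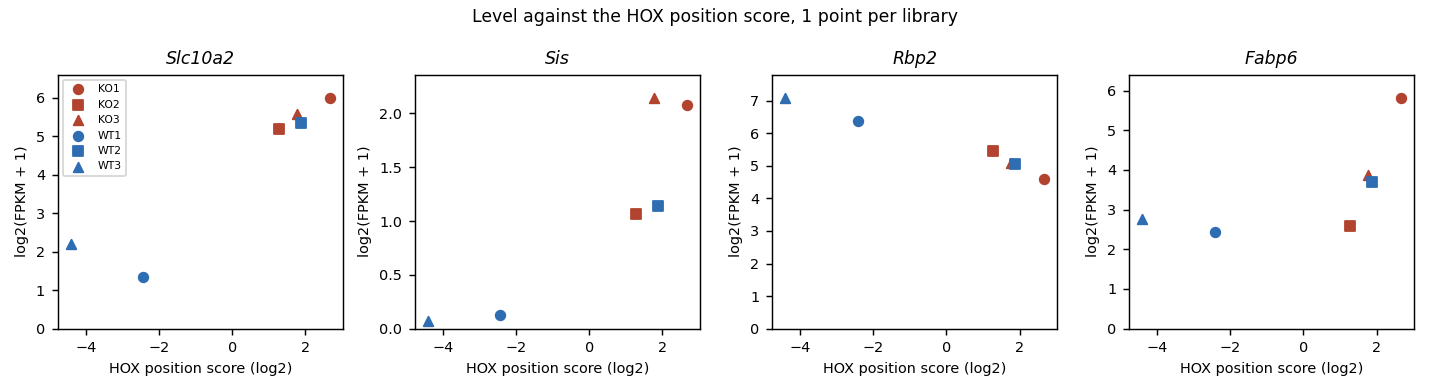
Level as log2(FPKM + 1) of Slc10a2, Sis, Rbp2 and Fabp6 against the HOX position score (log2 units, higher is more proximal), 1 point per library (red, knock-out; blue, wild-type). Wild-type replicate 2 sits with the knock-outs in each panel, and wild-type replicates 1 and 3 lie apart on the score at -2.43 and -4.42.

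**Figure D5:**
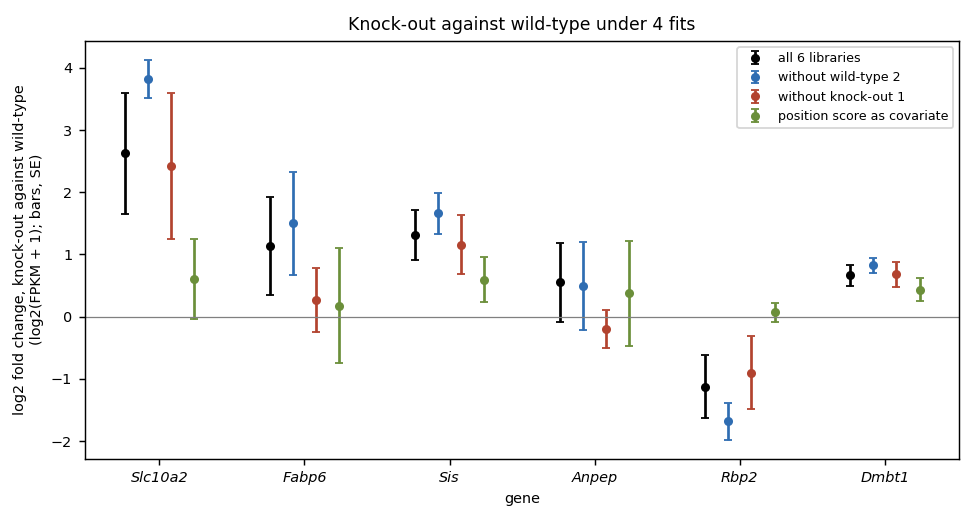
Log2 fold change of knock-out against wild-type with its SE for the 6 tested members under 4 fits: all 6 libraries, without wild-type replicate 2, without knock-out replicate 1, and with the HOX position score in the model. Slc10a2 moves from 2.63 to 0.60 and Rbp2 from -1.12 to 0.07 with the covariate, and Anpep moves from 0.55 to -0.20 without knock-out replicate 1.

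A second pattern concerned knock-out replicate 1 alone and was noticed after the values were seen. Among 12084 genes that reached 1 FPKM in any library, 9 (0.0745%) were at least 2 times as high in that library as in each of the other 5, and 3 of these were members: Apoa1, Anpep and Fabp6, at 11.1, 4.41 and 4.07 times the next library, the 3 highest such ratios among the 12084 genes. Apoa1 reached 1 FPKM only in knock-out replicate 1, so its place in this count follows from that same value, and the count is a description only. Below that level, Apoa5, another apolipoprotein gene picked out with its values known, stood at 0.12 FPKM there and at most 0.02 elsewhere. Apoc3 was also highest there (0.64, next 0.38), and Apoa4 was level with knock-out replicate 3 at 0.16. Apoc2 was lowest there (3.53 against 6.62 to 14.98), and Apob stood at 28.37 there against 41.58 in knock-out replicate 3. The other genes among the 9 were Cyp3a25 and Cyp3a44, cytochrome P450 genes, Defb37, a beta-defensin gene, Fabp3, a relative of Fabp6, Gm14430 and Grin1os. Cyp3a44 stood at 9.51 FPKM against 3.40 in knock-out replicate 2 and at most 0.71 elsewhere, and Defb37 at 10.21 against 4.54 in knock-out replicate 3. Mttp came eleventh, just under 2-fold, and it too reached 1 FPKM only in knock-out replicate 1, so its place follows from that same value. Slc10a2 in the same library was only 1.34 times the next highest, and Sis and Dmbt1 were higher in knock-out replicate 3. Wild-type replicate 3 had the most such genes, 98 (0.811%), with 0 members among them. Of 10 markers of Paneth cells, a small intestinal cell type, 5 were in the table, and 3 of these were highest in knock-out replicate 1: Ang4 at 10.75 FPKM (next 8.64), Mmp7 at 3.33 (next 2.77) and Itln1 at 1.30 (next 1.21). Lyz1 stood at 7.77 there and reached 21.68 in wild-type replicate 1, and Pla2g2a stood at 0.35 there and reached 1.19 in the same wild-type. The 5 summed to 23.5 FPKM in knock-out replicate 1, 17.4 and 20.1 in the other knock-outs and 16.7 to 31.4 in the wild-types, and their part in the pattern was not tested.

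Transporters for other nutrients gave a mixed picture. Of 17 genes of sugar, amino acid and peptide uptake, 14 were tested, 5 positive and 9 negative (median -0.33). None was called by limma, and 3 had an unadjusted p below 0.05, against 12.5% of all genes tested. Slc15a1, the peptide transporter gene, stood at 8.03, 22.11 and 16.95 FPKM in the knock-outs and at 77.05, 15.52 and 108.52 in the wild-types, the same order of groups as Rbp2. Slc36a1, a proton-coupled amino acid transporter gene, stood at 6.68, 6.16 and 7.13 against 36.41, 6.55 and 76.52. The glutamate transporter gene Slc1a1 averaged 8.33 ± 1.17 against 16.7 ± 7.54, and Slc3a2, the shared heavy chain gene of amino acid exchangers, 28.2 ± 1.90 against 37.8 ± 7.93 (SD, n = 3 each). Slc2a2, encoding the basolateral sugar transporter of the small intestine, was listed at 0.04 in wild-type replicate 1 and at 0 in the other 5 libraries.

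Of 14 iron, calcium and vitamin uptake genes, 10 were tested, 4 positive and 6 negative (median -0.32). None was called by limma, and 3 had an unadjusted p below 0.05, against 12.5% of all genes tested. Slc46a1, the folate transporter gene, stood at 1.73, 1.61 and 2.22 FPKM in the knock-outs and at 14.72, 2.34 and 32.97 in the wild-types, without overlap. The gap was narrow, 2.22 against 2.34, and 9.79% of all genes tested were separated with knock-out lower. Trpv6, the calcium channel gene, stood at 0.02, 0.17 and 0.09 against 1.39, 0.06 and 5.48. It met the minimum level only through its wild-type values, so its place among the tested genes follows from them. Slc11a2, the iron transporter gene, averaged 10.1 ± 0.683 against 14.2 ± 3.34, and Amn, which anchors the vitamin B12 receptor, 7.89 ± 1.75 against 2.73 ± 3.20 (SD, n = 3 each). In Amn the direction was that of Slc10a2, and in the other 3 that of Rbp2.

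Transcription factors that act on these genes in enterocytes were examined as a list. Of 16 genes, 13 were tested, 9 positive and 4 negative (median 0.10). None was called by limma, and 4 had an unadjusted p below 0.05, against 12.5% of all genes tested. Gata5 averaged 2.11 ± 0.0306 FPKM in knock-out and 1.03 ± 0.692 in wild-type, Prdm1 2.07 ± 0.414 and 1.09 ± 0.481, Maf 6.71 ± 1.06 and 3.95 ± 2.04, and Hnf4g 7.93 ± 1.30 and 10.3 ± 1.29 (SD, n = 3 each). These 4 were named for their low p. Groups overlapped in Maf and did not in the other 3, with Gata5 and Prdm1 higher and Hnf4g lower in knock-out (7.13% and 9.79% of all genes tested were separated in these directions). Gata4, which in mice marks the proximal small intestine, was likewise picked out with its values known and stood between 0.22 and 1.32 FPKM. Cdx2, an intestinal identity factor known to bind the Sis promoter, was picked out in the same way. It stood at 139.92, 150.87 and 144.02 in the knock-outs and at 81.21, 154.94 and 33.28 in the wild-types, low in wild-type replicates 1 and 3. That pair was below the other libraries in 22% of all genes tested, and a link between Cdx2 and Sis was not tested.

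For each tested member, the 3 other genes with the most similar profile were found by Pearson's r of log2(FPKM + 1) over the 6 libraries, a description made by searching all 11366 genes. For Slc10a2 they were Acaa2, Paqr5 and Tlcd2 (r = 0.998, 0.998 and 0.997), for Sis Aig1, Dot1l and Il2rb (0.998, 0.997 and 0.994), and for Rbp2 Tbc1d8b, Dhrs1 and Lrrc8a (0.998, 0.995 and 0.994). For Dmbt1 they were Dock1, Med13 and Ap2b1 (0.991, 0.991 and 0.989), for Fabp6 Tmem184b, Atat1 and Dennd2d (0.986, 0.984 and 0.980), and for Anpep Canx, Styx and Sec24d (0.973, 0.972 and 0.968). Acaa2, the gene of a fatty acid oxidation enzyme, stood at 146.80, 127.85 and 136.33 FPKM in the knock-outs and 81.27, 135.22 and 91.67 in the wild-types, a much narrower range than that of Slc10a2. Among the members themselves, Slc10a2 was closest to Dmbt1 (0.945), Fabp6 to Anpep (0.906) and Sis to Slc10a2 (0.904), and Rbp2 ran opposite to Slc10a2 (-0.911). No weight is put on these values, since the profiles share libraries and 43.7% of genes followed the same broad order.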

How the data were processed

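Colon RNA of 6 mouse libraries was analysed; the 6 RKO cell libraries of the series were not used here. The authors deposited FPKM per gene, per the file headers, printed to 2 decimals. HTSeq, HISAT, edgeR and Bowtie2 are listed, with no versions or roles, per the submitters' processing notes; a mouse build is not given in the sources used here. The total FPKM per library was 491900.5 to 507206.3. Read depth is not given, so no counting interval can be stated. Of the per-sample columns of the mouse table, 0 were left unmapped.

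Genes with a mean of at least 1 FPKM were compared as log2(FPKM + 1) with limma 3.58.1 in R 4.3.3 (variance trend), with Benjamini-Hochberg adjustment over all genes tested and a threshold of 0.05. Fold changes on this scale understate changes of low genes. Single values used scipy 1.17.1. The fit was tested on simulated data. Alternatives were other pseudocounts (0.1, 0.5), lower minima, 3 rescalings, the replicate number as a block, the position score as a covariate and removal of each library. The members and lists were chosen with earlier results of these data known. Named genes were the 10 members, up to 4 non-members per list with the lowest unadjusted p, and the 3 most similar genes per member. Genes absent from the table were not analysed here. In 1 list, 1 gene that this rule names is not reported here and remains in the list's counts. No mouse sequence was used.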

Additional observations from a re-analysis of the deposited data

How the results depend on the processing

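In limma 0 genes were called higher and 0 lower with all libraries, and the same held under each of the 9 alternatives that kept them. Leaving out 1 library gave 0 to 1045 genes called higher and 0 to 816 lower; only the fit without wild-type replicate 2 called any. That fit also called Slc10a2, Rbp2, Dmbt1 and Sis, and Sis met the minimum level there only through its knock-out values. Direction turned in 2 fits of members: Rbp2 with the position score as a covariate (0.0692) and Anpep without knock-out replicate 1 (-0.20, in a range of -0.20 to 1.16 over the 6 removals). Over the removals Slc10a2 ranged from 1.82 to 3.82, Sis from 1.12 to 1.67, Rbp2 from -1.69 to -0.66, Dmbt1 from 0.50 to 0.83 and Fabp6 from 0.27 to 1.89. Sis was 2.85 with a pseudocount of 0.1 and 1.80 with 0.5. With the replicate block 0 genes were called (1242 at an unadjusted p under 0.05, against 1420 without it). Deviations from the group means in same-numbered libraries had r of -0.45, -0.14 and 0.15. With 3 libraries per group, these values cannot show whether the numbers pair the libraries. Low FPKM at 2 decimals limits Lct, Apoa4 and, outside knock-out replicate 1, Apoa1.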
